A study of Mus musculus with 12 samples.

Results

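Serpina3f, Serpina3g and Serpina3n are 3 neighbouring mouse genes for serine protease inhibitors of the serpin family. They are 3 of the 24421 gene symbols counted, and all 3 passed the filter on low counts that left 12981 genes. They were taken by symbol and chosen by the level of Serpina3f, which is lower in Ifngr1 null/null cells in these same counts, so every genotype value of the 3 genes is a description and carries no test. The cells came from the tibialis anterior, a shin muscle, of mice whose muscle had been injured 5 days earlier with notexin, a snake venom phospholipase that kills fibres. They were sorted as live (PI-) CD45+ CD11B+ cells lacking LY6G and SIGLECF, and are labelled macrophages. The 4 groups of 3 libraries each were Ifngr1 null/null mice given anti-TNF neutralizing antibody, Ifngr1 null/null mice given an isotype antibody, Ifngr1 wt/null mice given anti-TNF, and Ifngr1 wt/null mice given isotype. Antibodies were injected daily, every mouse had been injured, and the wt/null mice also carried 1 null allele, so no group was wild type or uninjured. The series asks what interferon gamma (IFN-γ) does in muscle regeneration and fibrosis, and the labels do not say whether each library was a separate mouse.

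Serpins trap the protease they inhibit by offering a reactive loop that is cut and locks the enzyme in place. Humans have a single SERPINA3 gene for an acute-phase protein made by the liver, whereas mice carry a cluster of copies that differ in their reactive loops. Mouse Serpina3g, also called Spi2A, acts inside cells of the immune system, where it inhibits lysosomal cathepsins that leak into the cytosol. Mouse Serpina3n is secreted, inhibits granzyme B and neutrophil proteases, and is an acute-phase gene in several tissues. Serpina3f is a less studied copy of the same group. IFN-γ binds a receptor whose ligand-binding chain is the product of Ifngr1, and the signal reaches DNA at gamma-activated sequences (GAS).

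The 3 genes lie on the plus strand of chromosome 12 in a cluster, of which the 11 Serpina3 symbols looked up here span 301.6 kb (GRCm38, GENCODE M21). Among the 11, Serpina3h is annotated as a pseudogene. A further annotated entry, Serpina3e-ps, was not looked up. Serpina3f (ENSMUSG00000066363.12) is at chr12:104214544-104221129 and Serpina3g (ENSMUSG00000041481.16) at chr12:104236245-104241939, 15.1 kb further on. Serpina3n (ENSMUSG00000021091.8) is at chr12:104406729-104414329, 164.8 kb beyond Serpina3g. The annotated coding sequences of Serpina3f and Serpina3g were 87.4% identical over 744 aligned bases. Serpina3f and Serpina3n were 85.3% identical over 1223, and Serpina3g and Serpina3n 84.7% over 648. The annotated coding sequence of Serpina3g has 744 bases, against 1335 for Serpina3f and 1254 for Serpina3n. The 3 values thus cover unlike spans. The start windows of the 3 genes are shown because Serpina3f and Serpina3g were highest in the same library and Serpina3n in another. They run from 250 bases before to 50 bases after the RefSeq start (GRCm38.p6, plus strand): chr12:104214294-104214593 for Serpina3f, chr12:104235897-104236196 for Serpina3g and chr12:104406458-104406757 for Serpina3n. Capitals mark each match to the GAS letters TTCNNNGAA.
Serpina3f: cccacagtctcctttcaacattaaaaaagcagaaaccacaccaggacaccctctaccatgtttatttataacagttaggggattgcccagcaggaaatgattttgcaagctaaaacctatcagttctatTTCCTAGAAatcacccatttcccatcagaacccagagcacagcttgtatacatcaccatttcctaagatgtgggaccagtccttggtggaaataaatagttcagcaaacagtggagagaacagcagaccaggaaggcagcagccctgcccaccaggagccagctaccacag
Serpina3g: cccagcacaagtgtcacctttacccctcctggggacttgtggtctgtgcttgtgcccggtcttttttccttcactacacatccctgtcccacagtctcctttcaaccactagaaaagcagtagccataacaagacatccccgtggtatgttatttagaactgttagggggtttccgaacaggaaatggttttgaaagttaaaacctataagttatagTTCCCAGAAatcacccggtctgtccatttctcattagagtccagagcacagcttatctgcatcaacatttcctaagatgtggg
Serpina3n: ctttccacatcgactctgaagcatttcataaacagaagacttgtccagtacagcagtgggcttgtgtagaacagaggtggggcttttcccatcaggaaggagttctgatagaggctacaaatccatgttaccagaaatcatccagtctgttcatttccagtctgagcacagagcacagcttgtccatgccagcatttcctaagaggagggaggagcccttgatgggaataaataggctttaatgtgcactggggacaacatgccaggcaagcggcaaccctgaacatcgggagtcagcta

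The GAS letters, which read the same on both strands, occurred in the windows of Serpina3f and Serpina3g and not in that of Serpina3n. The match lay at -121 to -113 from the RefSeq start of Serpina3f and at -33 to -25 from that of Serpina3g. The GENCODE start of Serpina3g, chr12:104236245, lies beyond the end of its window at chr12:104236196. Distances in Serpina3g therefore depend on the annotation, and the 2 positions cannot be compared as places in the promoter. Across all 32851 RefSeq promoters of the same length, 2726 (8.30%) held these letters. An NF-κB type motif (GGG and TTTCC with any 2 bases between them), searched on both strands, occurred at -85 to -76 in Serpina3g and at -171 to -162 in Serpina3n, and not in Serpina3f. It was found in 1.63% of all promoters. The core of the interferon-stimulated response element (GAAA and GAAA with any 2 bases between them) was found on either strand in 3.44% of all promoters and in none of the 3. No match overlapped another in the 3 windows. A match describes the letters in the window and is not evidence of binding.

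**Figure D1:**
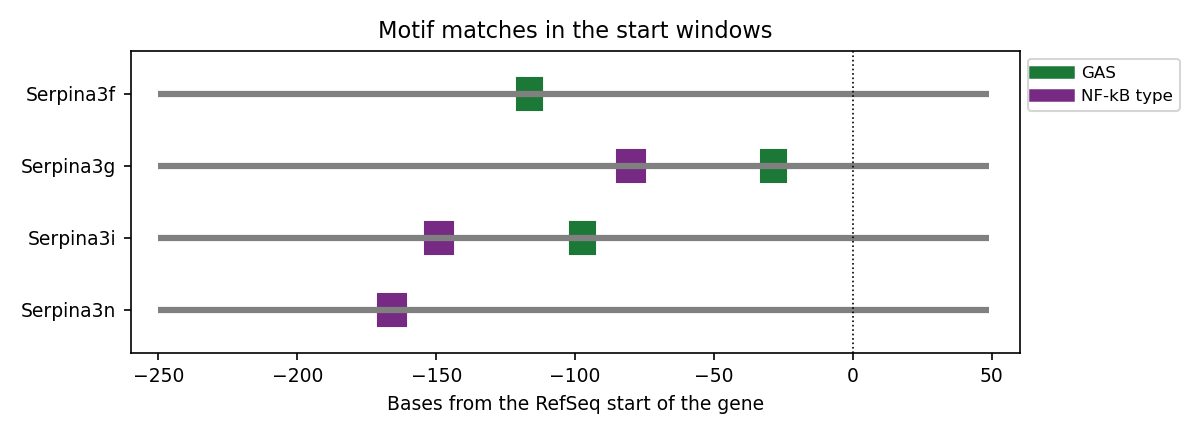
Motif matches in the RefSeq start windows of Serpina3f, Serpina3g, Serpina3i and Serpina3n, with bases from the annotated start on the horizontal axis. Green blocks are GAS matches and purple blocks are NF-κB type matches, and Serpina3n has a purple block and no green one.

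The GAS match of Serpina3f sits in a block that can be aligned across the family. The 30 bases around it are shown with the same block of 4 other members of the cluster, to let the central 9 bases, in capitals, be compared.
Serpina3f: tcagttctatTTCCTAGAAatcacccattt
Serpina3g: taagttatagTTCCCAGAAatcacccggtc
Serpina3i: taagtgcttgTTCCCAGAAatcacccagtc
Serpina3n: caaatccatgTTACCAGAAatcatccagtc
Serpina3c: taaatccataTTACCAGAAatcatccagtc

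Serpina3g and Serpina3i each differed from Serpina3f at 7 of the 30 aligned bases, and both kept the GAS letters. Serpina3n differed at 12 and Serpina3c at 11, and neither matched the GAS letters. Blocks of Serpina3b, Serpina3a and Serpina3j, not shown, differed at 12, 14 and 17 and did not match them either. The blocks shown lie at chr12:104214413-104214442 (Serpina3f), chr12:104236104-104236133 (Serpina3g), chr12:104263010-104263039 (Serpina3i) and chr12:104406575-104406604 (Serpina3n), and at chr12:104153973-104154002 on the minus strand (Serpina3c). The table of promoters held 8 of the 11 family symbols, and the windows of the remaining 3 of these 8 (Serpina3a, Serpina3b and Serpina3j) held no GAS letters.

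Libraries held 23.2 to 29.9 M counts (M, mega). Ifngr1 itself ranged over 83.3 to 118.7 CPM (counts per M counts, scaled by the trimmed mean of M-values, TMM) in the 6 null/null libraries, against 226.2 to 250.5 CPM in the 6 wt/null libraries. The macrophage genes Csf1r (3157 to 4061 CPM) and Adgre1 (1368 to 1783 CPM) and Itgam (673.8 to 1047 CPM), the gene of CD11B, were high in all 12 libraries. In 2 libraries, replicate 1 of null/null anti-TNF and replicate 2 of wt/null anti-TNF, the first principal component (34.4% of the variance) was 45.9 and 54.2, while the other 10 libraries lay between -20.8 and -3.47. In that null/null library and that wt/null library the dendritic cell receptor Flt3 stood at 89.3 and 87.3 CPM, against 20.4 to 32.1 CPM in the other 10. Summed over 9 dendritic markers, the level was 1190 CPM in the null/null one and 1133 CPM in the wt/null one. These sums lay within the 969.4 to 1463 CPM of the other 10. The mean log2 CPM of the 9 markers was 5.03 and 5.45, against 3.63 to 4.31 in the other 10. Ifng, the gene for IFN-γ, stood at 1.48 CPM in the null/null one and 2.91 CPM in the wt/null one, against 0 to 0.427 CPM in the others. Ctsk, for cathepsin K, stood at 35.9 CPM in the null/null one and 21.0 CPM in the wt/null one, against 260.9 to 1233 CPM in the others. Levels and fold changes of the 3 genes, and the gene lists they move, are also given without these 2 libraries.

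Serpina3f was lower in every null/null library than in every wt/null library. Its counts were 56, 26 and 43 in null/null anti-TNF and 20, 39 and 52 in null/null isotype, against 150, 1206 and 87 in wt/null anti-TNF and 87, 174 and 144 in wt/null isotype. In CPM these were 2.12, 1.01 and 1.63 in null/null anti-TNF and 0.814, 1.50 and 1.80 in null/null isotype, against 5.58, 49.4 and 3.38 in wt/null anti-TNF and 3.46, 7.44 and 4.99 in wt/null isotype. The highest null/null library (2.12 CPM) lay under the lowest wt/null library (3.38 CPM), and replicate 2 of wt/null anti-TNF stood far above all others. Means were 1.59 ± 0.557 CPM in null/null anti-TNF, 1.37 ± 0.505 CPM in null/null isotype, 19.4 ± 25.9 CPM in wt/null anti-TNF and 5.29 ± 2.01 CPM in wt/null isotype (SD, n = 3 each). Without replicate 2 the wt/null anti-TNF mean was 4.48 ± 1.56 CPM (SD, n = 2). In order of level, wt/null anti-TNF came first, then wt/null isotype, null/null anti-TNF and null/null isotype, and only the step between the genotypes separated groups whose libraries did not overlap. Of the 12981 genes, 16 (0.123%) had all 6 null/null libraries below all 6 wt/null libraries, and Serpina3f was the only one of the 3 genes among them. In such bulk samples, fewer cells that make a transcript and less of it per cell cannot be told apart.

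Serpina3g held the most counts of the 3 genes, and with all 12 libraries its group means had the same order. It had 476, 185 and 211 counts in null/null anti-TNF and 131, 260 and 360 in null/null isotype, against 547, 3884 and 411 in wt/null anti-TNF and 337, 664 and 521 in wt/null isotype. Scaled to CPM they were 18.0, 7.19 and 8.01 in null/null anti-TNF and 5.33, 10.0 and 12.4 in null/null isotype, against 20.4, 159 and 16.0 in wt/null anti-TNF and 13.4, 28.4 and 18.0 in wt/null isotype. The genotypes overlapped only through replicate 1 of null/null anti-TNF (18.0 CPM), which is one of the 2 libraries that stand apart. The remaining 5 null/null libraries lay at or below 12.4 CPM and the 6 wt/null libraries at or above 13.4 CPM. How many of all genes part in this way without that library was not counted. With all 12 libraries Serpina3g is not among the 16 of 12981 genes (0.123%) whose null/null libraries all lay below the wt/null ones. Means were 11.1 ± 6.04 CPM in null/null anti-TNF, 9.27 ± 3.62 CPM in null/null isotype, 65.1 ± 81.4 CPM in wt/null anti-TNF and 19.9 ± 7.68 CPM in wt/null isotype (SD, n = 3 each). Without the 2 libraries that stand apart, the null/null anti-TNF mean was 7.60 ± 0.575 CPM and the wt/null anti-TNF mean 18.2 ± 3.11 CPM (SD, n = 2 each). Each then lay below the isotype mean of its genotype.

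Serpina3n showed no such order. Its counts were 85, 79 and 26 in null/null anti-TNF and 34, 15 and 32 in null/null isotype, against 62, 44 and 10 in wt/null anti-TNF and 14, 35 and 37 in wt/null isotype. These are 3.22, 3.07 and 0.987 CPM in null/null anti-TNF and 1.38, 0.578 and 1.11 CPM in null/null isotype, against 2.31, 1.80 and 0.388 CPM in wt/null anti-TNF and 0.556, 1.50 and 1.28 CPM in wt/null isotype. Group means were 2.43 ± 1.25 CPM in null/null anti-TNF, 1.02 ± 0.409 CPM in null/null isotype, 1.50 ± 0.995 CPM in wt/null anti-TNF and 1.11 ± 0.493 CPM in wt/null isotype (SD, n = 3 each). With the libraries that stand apart left out, the means were 2.03 ± 1.48 CPM in null/null anti-TNF and 1.35 ± 1.36 CPM in wt/null anti-TNF (SD, n = 2 each). The genotypes overlapped along most of their range, with medians of 1.25 CPM in null/null and 1.39 CPM in wt/null. Each group held 1 library whose title begins with 46 rather than 40, a number whose meaning the labels do not give, and in 3 of the 4 groups that library had the lowest Serpina3n level. The highest library of wt/null anti-TNF for Serpina3n was replicate 1, not replicate 2, where the other 2 genes peaked.

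**Figure D2:**
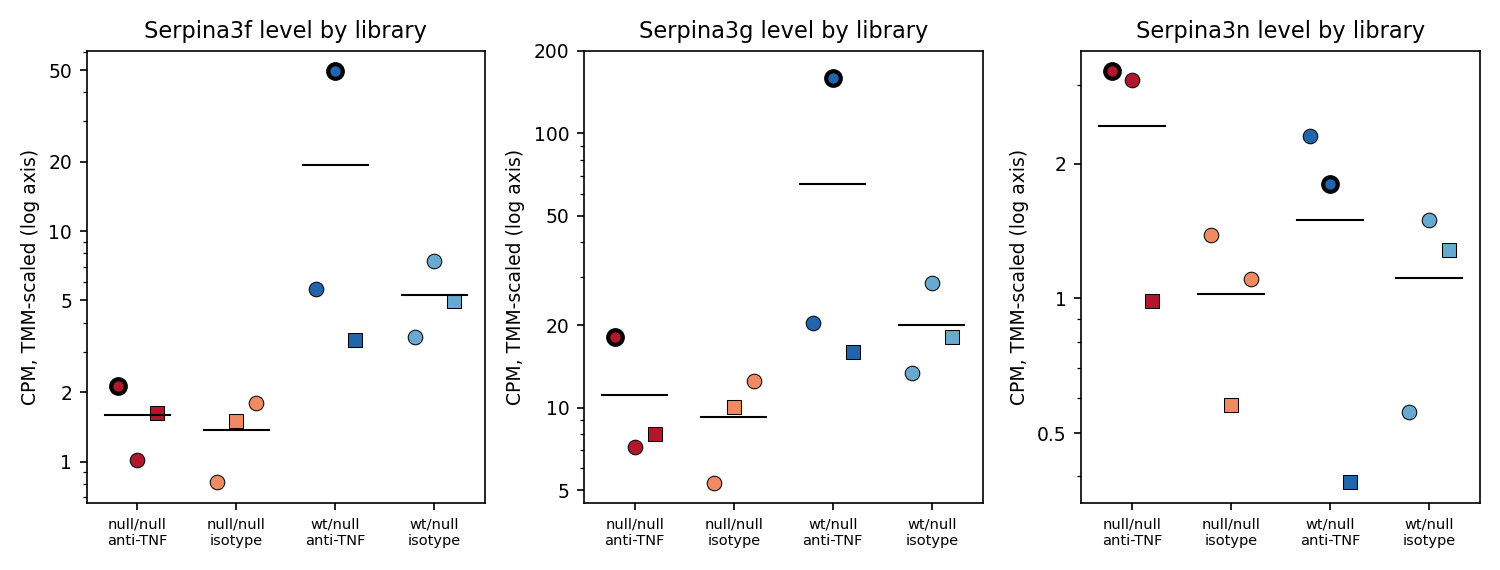
Level of Serpina3f, Serpina3g and Serpina3n in each of the 12 libraries, in TMM-scaled CPM on a log axis, by group, with bars at the group means. Squares are libraries with titles beginning with 46, and thick black rings mark the 2 libraries that stand apart. In the Serpina3f panel the null/null libraries end at 2.12 CPM and the wt/null libraries begin at 3.38 CPM, while in the Serpina3n panel all 4 groups overlap.

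Per kb of annotated exon, Serpina3g was the highest of the 3 genes in every group. In null/null anti-TNF it averaged 6.15 ± 3.35 CPM per kb, with Serpina3n at 1.18 ± 0.605 and Serpina3f at 0.693 ± 0.243 CPM per kb. Null/null isotype had 5.14 ± 2.01 for Serpina3g, 0.599 ± 0.221 for Serpina3f and 0.496 ± 0.198 CPM per kb for Serpina3n. In both null/null groups Serpina3f and Serpina3n overlapped. In wt/null anti-TNF the averages were 36.1 ± 45.1 for Serpina3g, 8.49 ± 11.3 for Serpina3f and 0.726 ± 0.482 CPM per kb for Serpina3n. Wt/null isotype had 11.1 ± 4.26 for Serpina3g, 2.31 ± 0.878 for Serpina3f and 0.538 ± 0.239 CPM per kb for Serpina3n (SD, n = 3 throughout). In the 10 libraries that remain without those that stand apart, null/null anti-TNF averaged 4.22 ± 0.319 for Serpina3g, 0.983 ± 0.715 for Serpina3n and 0.577 ± 0.192 CPM per kb for Serpina3f. Wt/null anti-TNF then averaged 10.1 ± 1.73 for Serpina3g, 1.96 ± 0.680 for Serpina3f and 0.653 ± 0.658 CPM per kb for Serpina3n (SD, n = 2 each). Near-identical copies make these levels uncertain: 15.5% of the 50-base windows of Serpina3g transcripts, 10.6% of those of Serpina3f and 6.90% of those of Serpina3n also occur in another gene. Of the Serpina3f windows, 138 of 2289 also occur in Serpina3g, and how the counting treated such reads is not given in the sources used here.

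The other Serpina3 symbols looked up were close to silent. All 8 were counted, none passed the filter, and Serpina3a, Serpina3b and Serpina3j had no counts in any library. The 14 counts of Serpina3m came from 2 libraries, with 12 of them in replicate 1 of null/null anti-TNF. Serpina3f, Serpina3g and Serpina3n together took 96.9% to 100% of the counts of the 11 symbols in each library. Of 13 other clade A serpins in the table, which include the antitrypsin genes, none passed the filter and 7 had no counts.

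Serpina3f lay lower relative to Serpina3g in null/null cells. The ratio of Serpina3f to Serpina3g counts was 0.118, 0.141 and 0.204 in null/null anti-TNF and 0.153, 0.150 and 0.144 in null/null isotype. It was 0.274, 0.311 and 0.212 in wt/null anti-TNF and 0.258, 0.262 and 0.276 in wt/null isotype. The genotypes did not overlap, with means of 0.152 ± 0.0285 in null/null and 0.266 ± 0.0322 in wt/null (SD, n = 6 each). This is given as a description, since Serpina3f was chosen for its lower level in null/null cells. How many other gene pairs have ratios that part in this way was not counted. The highest null/null value (0.204) and the lowest wt/null value (0.212) are both from libraries titled 46. The antibody, which the choice of genes did not use, left the ratio at 0.210 ± 0.0743 under anti-TNF and 0.207 ± 0.0642 under isotype (SD, n = 6 each). The difference of 0.00245 gave p = 0.88 in a two-sided exact permutation test within genotype (adjusted p = 0.93 over 4 measures, smallest possible p 0.005).

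Serpina3n made up more of the sum in null/null cells, with 13.4% ± 8.32 of the counts of the 3 genes in null/null and 3.91% ± 2.59 in wt/null. Its shares overlapped, from 4.78% to 27.2% in null/null and 0.857% to 8.17% in wt/null. A share also rises where the other genes of the sum are lower. The level of Serpina3n itself overlapped between the genotypes, with medians of 1.25 and 1.39 CPM. Serpina3g held 75.2% ± 7.01 in null/null and 76.0% ± 2.96 in wt/null, and Serpina3f 11.4% ± 2.39 in null/null and 20.1% ± 2.04 in wt/null (SD, n = 6 each). These shares by genotype are again a description. Serpina3n held 10.2% ± 9.62 under anti-TNF and 7.14% ± 5.67 under isotype. Serpina3g held 74.2% ± 5.83 under anti-TNF and 77.0% ± 4.41 under isotype, and Serpina3f 15.6% ± 5.81 under anti-TNF and 15.9% ± 4.66 under isotype (SD, n = 6 each). Anti-TNF minus isotype was 3.08 percentage points for Serpina3n (p = 0.44 in the same exact permutation test, adjusted p = 0.88), -2.83 for Serpina3g (p = 0.405, adjusted p = 0.88) and -0.25 for Serpina3f (p = 0.93, adjusted p = 0.93). Without the 2 libraries that stand apart, exact permutation gave p = 0.35 for the share of Serpina3n, 0.34 for Serpina3g, 0.72 for Serpina3f and 0.95 for the ratio.

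**Figure D3:**
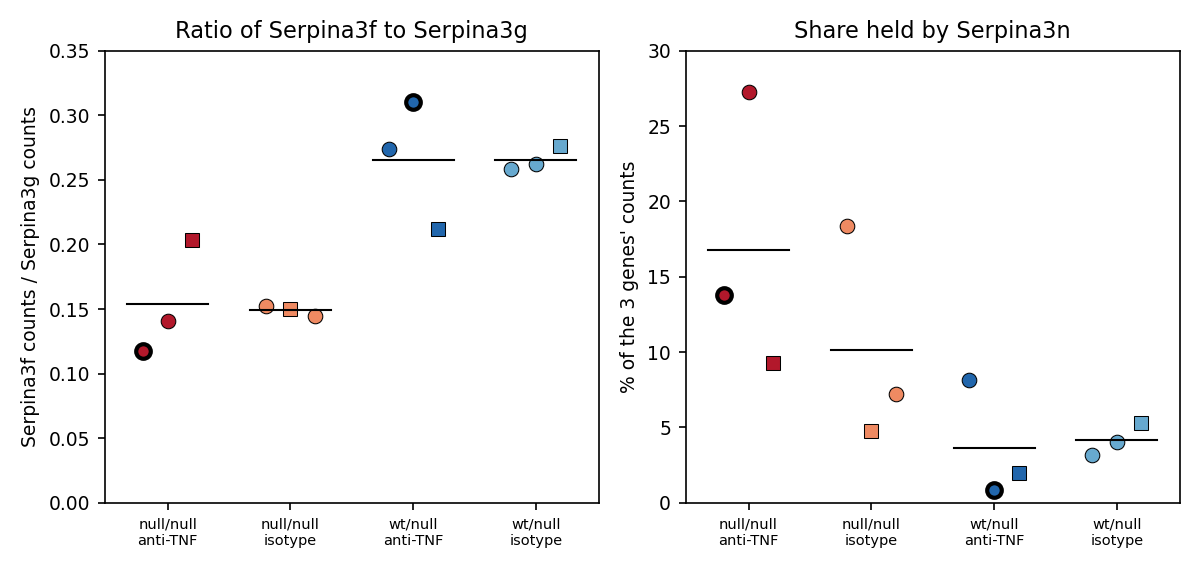
Ratio of Serpina3f to Serpina3g counts (left panel, a plain ratio) and the share of Serpina3n in the counts of the 3 genes (right panel, percent) for each library, with bars at the group means, squares for libraries titled 46 and thick rings for the 2 libraries that stand apart. The null/null ratios reach 0.204 and the wt/null ratios start at 0.212.

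The fitted genotype differences had the same sign for Serpina3f and Serpina3g under both antibodies. Under anti-TNF, null/null over wt/null was -3.61 ± 0.94 for Serpina3f and -2.55 ± 0.84 for Serpina3g on the log2 scale (SE). Under isotype it was -1.93 ± 0.93 for Serpina3f and -1.10 ± 0.82 for Serpina3g. With the libraries that stand apart left out, the estimates under anti-TNF were -1.76 ± 0.45 and -1.26 ± 0.41, close to the isotype ones in size. With only replicate 2 of wt/null anti-TNF left out, they were -1.49 for Serpina3f and -0.71 for Serpina3g. For Serpina3n the estimates were 0.69 ± 0.61 under anti-TNF and -0.12 ± 0.64 under isotype, and 0.58 ± 0.77 under anti-TNF without the 2 libraries that stand apart. Over all 12981 genes, edgeR's quasi-likelihood test called 1 gene at an adjusted p below 0.05, or 0.0077%, in each of the genotype comparisons, and that gene was Ifngr1 (-1.36 ± 0.08 on the log2 scale averaged over antibody, adjusted p = 1.43e-05).

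No antibody effect on the 3 genes was detected. In null/null cells, anti-TNF over isotype was 0.20 ± 0.98 for Serpina3f (95% interval -1.97 to 2.38, edgeR adjusted p = 0.985) and 0.25 ± 0.83 for Serpina3g (-1.60 to 2.10, adjusted p = 0.975) on the log2 scale (SE, n = 3 each). Serpina3n had 1.24 ± 0.62 there (-0.11 to 2.60, edgeR adjusted p = 0.947), with 2 of the 3 anti-TNF libraries above all isotype libraries. In wt/null cells the estimates were 1.88 ± 0.85 for Serpina3f (-0.018 to 3.77, edgeR adjusted p = 0.895) and 1.71 ± 0.81 for Serpina3g (-0.093 to 3.51, adjusted p = 0.895). Both rest on replicate 2 of wt/null anti-TNF: without the 2 libraries that stand apart they were -0.24 ± 0.38 (95% interval -1.07 to 0.59) for Serpina3f and -0.13 ± 0.36 (-0.95 to 0.68) for Serpina3g. The estimate for Serpina3n in wt/null cells was 0.43 ± 0.63 (-0.94 to 1.80, edgeR adjusted p = 0.928). In the 10 libraries that remain without those that stand apart, Serpina3n had 0.99 ± 0.70 in null/null cells and 0.28 ± 0.72 in wt/null cells, and Serpina3f and Serpina3g had -0.062 ± 0.44 and -0.29 ± 0.38 in null/null cells. The genotype and antibody comparisons share libraries, so their estimates are not independent of each other.

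Averaged over genotype, anti-TNF over isotype was 1.04 ± 0.64 for Serpina3f, 0.98 ± 0.58 for Serpina3g and 0.84 ± 0.44 for Serpina3n, with edgeR adjusted p of 0.679, 0.668 and 0.661. The interaction, which asks whether the antibody effect differed between the genotypes, was -1.67 ± 1.29 for Serpina3f, -1.45 ± 1.15 for Serpina3g and 0.81 ± 0.88 for Serpina3n, each with an edgeR adjusted p of 1.00. The intervals are wide: for Serpina3f the interaction ran from -4.54 to 1.19. Across the 12981 genes edgeR called 0% in each of these 4 comparisons, with 452 genes at an unadjusted p below 0.05 in null/null cells, 581 in wt/null cells, 949 for the average and 196 for the interaction. DESeq2 called 14 genes for the average, with none of the 3 among them, and 0 in the other 3 comparisons, and limma voom called 0 in all 4. These p-values measure the spread between libraries, which may be technical where libraries shared a mouse.

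**Figure D4:**
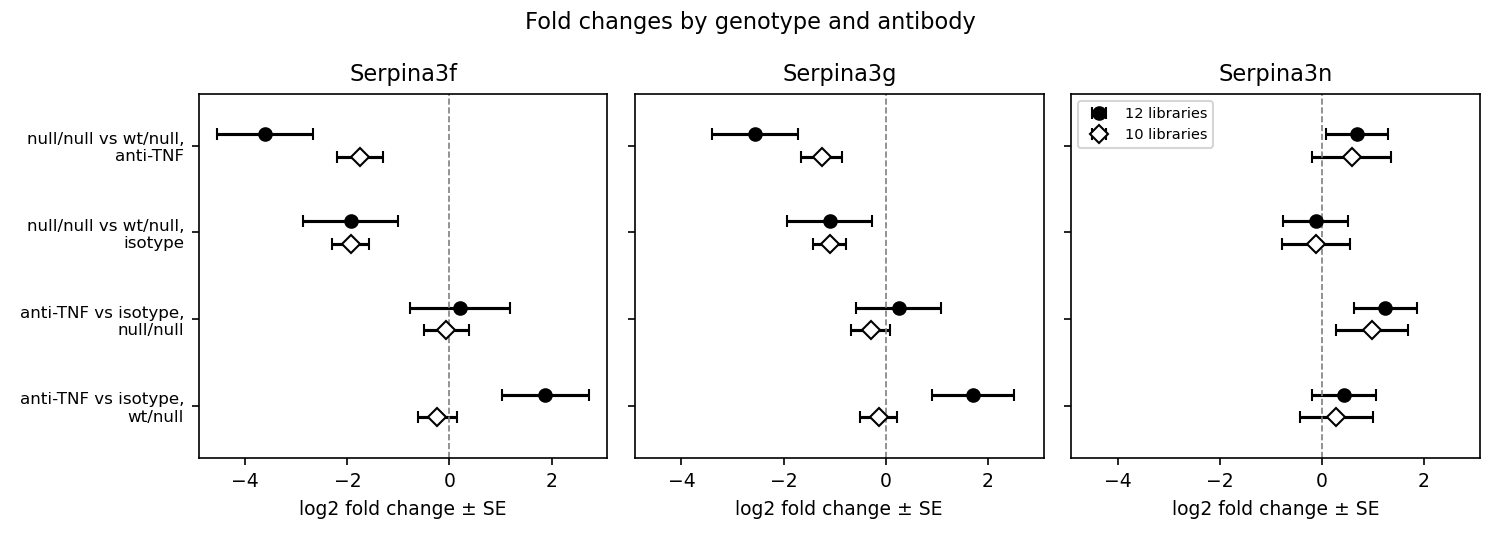
Log2 fold changes with standard errors for Serpina3f, Serpina3g and Serpina3n, null/null against wt/null under each antibody and anti-TNF against isotype in each genotype. Filled circles use all 12 libraries and open diamonds the 10 without those that stand apart. The anti-TNF estimate for Serpina3f in wt/null cells is 1.88 with 12 libraries and -0.24 with 10.

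In the 2 libraries that stand apart, some transcripts of T and natural killer cells were also high, and Serpina3f had different levels in them. Replicate 1 of null/null anti-TNF had 2.12 CPM of Serpina3f and 18.0 CPM of Serpina3g, and replicate 2 of wt/null anti-TNF had 49.4 CPM and 159 CPM. Gzma, for granzyme A, stood at 1.82 CPM in that null/null library and 5.24 CPM in that wt/null library, and at most 0.477 CPM in the other 10. Cd8a, a chain of the CD8 co-receptor, stood at 2.99 CPM in the null/null one and 5.65 CPM in the wt/null one, and 0.304 to 1.09 CPM in the other 10. All 13 T and natural killer markers were in the table and none was at 0 throughout a group. Their mean log2 CPM, over the 10 that were tested, was 1.57 in that null/null library and 2.25 in that wt/null library, against -1.26 to 0.010 in the other 10. Without these 2 libraries only 5 of the 13 passed the filter. The mean thus partly rests on markers kept through these libraries and is no separate support. The summed level of the 13 markers, most of it Cd4 (121.4 to 135.7 CPM as group means), was 129.1 to 153.6 CPM in null/null anti-TNF, 98.6 to 203.4 CPM in null/null isotype, 104.8 to 181.7 CPM in wt/null anti-TNF and 121.5 to 136.7 CPM in wt/null isotype. The part of these cells in the Serpina3 levels was not tested.

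Serpina3n is also made by mesenchymal cells, so their markers were summed as well. The summed level of 10 fibro-adipogenic markers was 379.9 to 1988 CPM in null/null anti-TNF, 1136 to 1181 CPM in null/null isotype, 531 to 1492 CPM in wt/null anti-TNF and 1227 to 1534 CPM in wt/null isotype. Replicates 1 and 2 of null/null anti-TNF, the highest Serpina3n libraries, held the lowest (379.9 CPM) and the highest (1988 CPM) of these sums. Of those markers Pdgfra, the receptor that defines fibro-adipogenic progenitors, lay at 2.09 to 5.95 CPM, and Tcf21 was the 1 marker of the 10 at 0 in all 12 libraries. Their part in the Serpina3n levels was not tested.

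Among genes known to be induced by IFN-γ, estimates were lower in null/null cells as they were for Serpina3f and Serpina3g. Of 30 listed genes 28 were tested, and all 28 had a negative estimate for null/null against wt/null averaged over antibody, with a median of -0.58 on the log2 scale against 0.00 over all genes tested. Under anti-TNF 27 of the 28 estimates were negative (median -0.88), and under isotype, which holds neither library that stands apart, 25 of the 28 (median -0.35). Without those 2 libraries 27 of the 28 were negative on average (median -0.44) and 26 of the 28 under anti-TNF (median -0.50). None of the 28 passed edgeR's test, where 0.0077% of all genes did. With all 12 libraries, the largest estimates were -3.07 ± 0.62 for Cxcl9, a chemokine for T cells, and -2.22 ± 0.51 for Iigp1 (SE). Next came -2.13 ± 0.83 for Tgtp1, like Iigp1 an immunity-related GTPase, and -2.04 ± 0.61 for Gbp4, a guanylate-binding protein. Cxcl9 stood at 118.3 CPM in replicate 2 of wt/null anti-TNF and at most 39.8 CPM in the 10 libraries that do not stand apart. Tgtp1 was low, at 3.56 ± 5.18 CPM in wt/null anti-TNF (SD, n = 3) and means of 0.20 to 0.79 CPM in the other groups. Anti-TNF over isotype gave positive estimates in 17 of the 28 in null/null cells (median 0.07) and in 27 of the 28 in wt/null cells (median 0.64), with none called in either or for the interaction. Without the 2 libraries that stand apart, 6 of the 28 were positive in null/null cells (median -0.22) and 11 of the 28 in wt/null cells (median -0.036), so the direction turned. The list mean, as log2 CPM, was 4.09 to 5.00 in the null/null libraries, against 4.89 to 5.23 in 5 wt/null libraries and 6.54 in replicate 2 of wt/null anti-TNF.

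Of the 8 genes of the IFN-γ receptor and its signalling, 6 had lower estimates in null/null cells and only Ifngr1 was called. The 16 TNF and NF-κB genes had 13 higher and 3 lower estimates averaged over antibody, a median of 0.07 and no call. Under anti-TNF 6 were higher and 10 lower (median -0.052), and under isotype all 16 were higher (median 0.20), with no call in either or for the interaction. With the libraries that stand apart left out, 14 of the 16 were higher under anti-TNF (median 0.078). Averaged over antibody, the largest estimates were Cxcl2 (0.35 ± 0.31) and Ccl5 (-0.31 ± 0.58), both chemokines (log2 scale, SE). Acute-phase, STAT3 and glucocorticoid target genes, a programme to which Serpina3n belongs, had 11 higher and 8 lower estimates of 19 tested, a median of 0.05 and no call, led by Saa3 (0.98 ± 0.82), for serum amyloid A. In the 10 libraries that remain without those that stand apart, 10 were higher and 9 lower (median 0.0071).

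Serpins of other clades, and the proteases that serpins act on, were measured in the same libraries. Of 18 other serpins 14 were tested, 9 with lower and 5 with higher estimates in null/null cells, a median of -0.01 and no call. Without the 2 libraries that stand apart, 6 were lower and 8 higher (median 0.042). With all 12, the largest estimates were -0.82 ± 0.94 for Serpind1, which encodes heparin cofactor II, and -0.53 ± 0.42 for Serpinb10. Serpinb6a was measured at 182.5 to 268.1 CPM across the 12 libraries. The 13 lysosomal proteases, which include the cathepsins that Serpina3g inhibits, had 8 higher and 5 lower estimates, a median of 0.05 and no call. Ctsb, for cathepsin B, stood at 12280 to 16260 CPM and Ctsl at 624.6 to 1318 CPM. The 11 granule serine proteases include granzyme B and the neutrophil enzymes that Serpina3n inhibits. Of these 7 were tested, with 4 higher and 3 lower estimates (median 0.17) and no call. Without the 2 libraries that stand apart 5 were tested, with 4 higher and 1 lower (median 0.38) and no call. The set tested thus depends on those libraries. Elane, for neutrophil elastase, did not exceed 0.266 CPM.

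Outside the 3 genes themselves, the genes whose levels were most like those of Serpina3f and Serpina3g were IFN-γ-inducible. Likeness was the lower of Pearson's r of log2 CPM over 12 libraries and over the 10 without those that stand apart. It is a description of libraries that share genotypes and antibodies. The 9661 genes compared averaged 2 or more in log2 CPM. Placeholder symbols, such as those beginning with Gm or ending in Rik, were left out. The 3 Serpina3 genes were left out too, so they were not compared with each other. For Serpina3f the closest were Iigp1 (r = 0.97 over 12 and 0.97 over 10), Gbp2 (0.98 and 0.96), Tgtp2 (0.97 and 0.95), Cxcl9 (0.96 and 0.95) and Gbp3 (0.96 and 0.94). For Serpina3g they were Gbp2 (0.98 and 0.97), Gbp3 (0.98 and 0.95), Tgtp2 (0.97 and 0.95), Gbp4 (0.97 and 0.93) and Nlrc5 (0.97 and 0.92). All 10 of these entries, in which Gbp2, Gbp3 and Tgtp2 occur for both genes, are on the IFN-γ-inducible list. That list held 28 of the 12981 genes tested, and how many of the 28 were among the 9661 compared was not counted. It was chosen with earlier results of these data known, and Serpina3f by its genotype difference, so the likeness is no independent support. Iigp1, for example, averaged 10.1 ± 5.33 CPM in null/null anti-TNF and 9.29 ± 4.43 CPM in null/null isotype, against 66.0 ± 70.3 CPM in wt/null anti-TNF and 31.0 ± 5.19 CPM in wt/null isotype (SD, n = 3 each).

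None of the 5 genes closest to Serpina3n was on that list. They were Slc25a32, a mitochondrial folate carrier (r = 0.86 over 12 and 0.84 over 10), Zfhx3 (0.84 and 0.83), Rbm26 (0.85 and 0.80), Abca9 (0.83 and 0.79) and Nhsl2 (0.79 and 0.83). Slc25a32 varied little, with means of 9.78 to 10.8 CPM across the 4 groups, and Serpina3n is at the low end of the counts, where r is least certain.

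**Figure D5:**
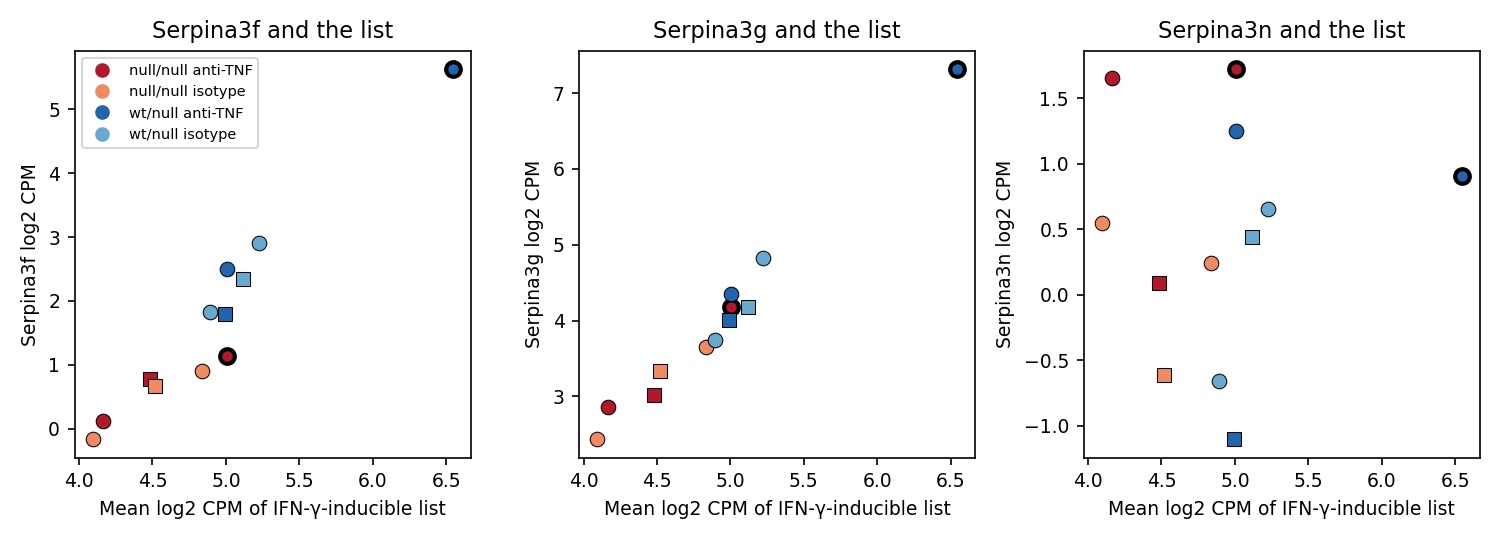
Log2 CPM of Serpina3f, Serpina3g and Serpina3n against the mean log2 CPM of the IFN-γ-inducible list, 1 point per library, coloured by group, with squares for libraries titled 46 and thick rings for the 2 libraries that stand apart. Points of Serpina3f and Serpina3g lie higher where the list mean is higher, up to 6.54 in replicate 2 of wt/null anti-TNF, and those of Serpina3n are scattered.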

How the data were processed

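The authors deposited counts for each gene symbol, without normalization: the values are whole numbers that differ in total between libraries. The submitters' processing notes name bcl2fastq 2.20, STAR, Bowtie and the build mm10, without roles. The counting tool, its strand setting and its treatment of reads shared by paralogs are not given in the sources used here. All 12 columns were matched to samples by title, and 0 were left over. Groups follow the labels of genotype and treatment, and replicates are numbered in the listed order.

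Genes were kept by filterByExpr, which left 12981 genes holding at least 99.97% of each library's counts. Counts were scaled by TMM and fitted as 4 group means with robust quasi-likelihood models in edgeR 4.0.16 (R 4.3.3, biological coefficient of variation 0.179), with Benjamini-Hochberg adjustment over all tested genes. All tests were two-sided, intervals are 95%, and genes were called at an adjusted p below 0.05. Log2 CPM used a prior count of 2. DESeq2 1.42.0 and limma 3.58.1 (voom with quality weights) were alternatives, with other scalings, filters, title number as a block, titles 40 alone, only the groups compared, and each library left out. The shares of the 3 genes were tested by exact permutation of the antibody within genotype (400 arrangements).

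The named genes follow a rule: the 3 genes, the other Serpina3 symbols, list members with the largest genotype estimates, marker genes, and the 5 closest genes per Serpina3 gene. Members, lists and the 2 libraries left out were chosen with earlier results of these data known, so no count here is independent support. Sequences are from RefSeq (GRCm38.p6), positions from GENCODE M21. The fits were tested on simulated data.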

Additional observations from a re-analysis of the deposited data

How the results depend on the processing

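None of the 3 genes passed the antibody tests under any alternative, where adjusted p ran from 0.37 to 1. For anti-TNF against isotype, Serpina3f and Serpina3g turned negative without the 2 libraries that stand apart (null/null anti-TNF replicate 1 and wt/null anti-TNF replicate 2). Without them, and then also with title number as a block, Serpina3f was -0.062 and -0.050 in null/null, -0.24 and -0.23 in wt/null, -0.15 and -0.14 on average, and 0.18 and 0.18 for the interaction. Serpina3g was -0.29 and -0.28, -0.13 and -0.12, and -0.21 and -0.20 for the first 3 of these. Limma voom gave -0.053 for Serpina3f and -0.18 for Serpina3g in null/null. With each library left out, Serpina3f ranged from -0.063 to 0.45 in null/null, -0.24 to 2.38 in wt/null, -0.017 to 1.29 on average and -2.17 to 0.44 for the interaction. Serpina3g ranged from -0.29 to 0.53 in null/null, -0.13 to 2.17 in wt/null and -1.997 to 0.39 for the interaction, and Serpina3n from -0.028 to 0.88 in wt/null. The lowest values of Serpina3f and Serpina3g in wt/null came without wt/null anti-TNF replicate 2.

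Genotype under anti-TNF was -2.36 with voom for Serpina3f, -1.76 without the 2 libraries and -1.75 with the block added, and -1.26 and -1.25 for Serpina3g in the last 2.

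Over all genes, the number called was 1 with only the groups compared for anti-TNF in null/null. For the antibody average it was 14 with DESeq2, 1 with titles 40 alone and 1 without the 2 libraries with the block. For genotype it was 4 with DESeq2 averaged over antibody, 2 with DESeq2 and 0 with titles 40 alone under isotype, and 2 with DESeq2, 0 with titles 40 alone and 0 with only the groups compared under anti-TNF. Leaving out each library gave 0 to 0 calls for the antibody comparisons and 1 to 1 for the genotype comparisons. The causes were not tested.

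No paired analysis was made. The labels give no replicate numbers, and those used here follow the listed order. The titles also carry letters of unstated meaning, and a block by number and letter together was not tested. The 2 libraries that stand apart share their title number and letter with each other and with a library in each isotype group. The titles give 1 library numbered 46 in each group, and with that number as a block the antibody comparisons had 0 calls and the genotype comparisons 1 each, as without it. The SE of the antibody estimate for Serpina3f was 0.98 in null/null and 0.85 in wt/null with 12 libraries, and 0.44 and 0.38 without the 2 that stand apart, at the same depth.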
